A study of Aedes albopictus with 6 samples.

Results

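Circular RNAs (circRNAs) are closed RNA rings made when a downstream splice site of a transcript joins an upstream one, and the joined ends leave a back-splice junction that no linear RNA carries. Most animal circRNAs are built from coding exons, often from several exons with the introns between them removed, and they resist the exonuclease RNase R. In flies they are known to be abundant in nervous tissue and to outlive their linear counterparts. The circRNAs described here were those from coding exons of the Asian tiger mosquito (Aedes albopictus) that held at least 1 inner intron and were found in every library of the series. They were chosen from the deposited table as circRNAs of protein-coding genes with both ends in exons, at least 1 junction read in each of the 6 libraries, a span (end minus start) larger than the spliced length plus 1 base and under 50000 bases, and a spliced length under 2000 bases. This gave 682 circRNAs out of 8690, from 588 host genes. A span larger than the spliced length means that an intron lies inside, so the name multi-exon rests on the lengths; exon numbers were not used.

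The libraries came from whole bodies of virgin mosquitoes of the Foshan laboratory strain aged 2 days. There were 3 female and 3 male libraries, each from a pool of 30 mosquitoes, with no treatment in either group, and RNase R digestion and removal of ribosomal RNA were applied to all 6. Pools hide the spread between single mosquitoes. Each library is a mixture of all tissues, so fewer cells of a type and less RNA per cell cannot be told apart. Female libraries held 13322 to 17197 junction reads and male libraries 21624 to 27257. The doublesex-like gene, whose transcript is spliced by sex in insects, listed 1 circRNA with 12 female and 16 male reads, which does not check the sex labels.

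The presence in all libraries was itself a measured value, so the abundance of these circRNAs and their recurrence are described without a test. Among the 862 circRNAs of any kind with reads in all 6 libraries, 785 had both ends in exons of coding genes. Of these 785, 82 lacked an inner intron, 10 spanned 50000 bases or more and 14 had a spliced length of 2000 bases or more. Just inside the limit on reads stood circRNAs of the receptor-type guanylate cyclase Gyc76C-like gene (LOC109420097) and of LOC109423133, each with 8 reads in all. Just outside, without a read in 1 library, stood a circRNA of LOC109397236 with 77 reads and none in male replicate 2, and one of a dystrophin gene (LOC115268965) with 75 reads and none in female replicate 1. The widest spans inside the limit were 47030 bases at the trissin receptor gene (LOC109419738) and 45205 bases at the diuretic hormone receptor gene (LOC109419645), and the narrowest span outside was 54865 bases at a platelet-derived growth factor receptor beta-like gene (LOC109429378). The longest spliced circle inside was 1886 bases (armadillo repeat-containing protein 8-like, LOC109404586) and the shortest outside was exactly 2000 bases (protein Smaug-like, LOC109420858). The smallest inner intron sequence was 53 bases, at leucine-rich repeat neuronal protein 3-like (LOC109622232).

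The recurring multi-exon circRNAs were few and carried much of the signal. They made up 7.85% of the circRNAs listed and 47.97% of the junction reads (58062 of 121044). Among the 5068 circRNAs that met the same limits on type and length, they were 13.5% by number and 64.8% by reads. A level is given here as a circRNA's junction reads per 10000 junction reads of the library after TMM scaling, a factor per library that evens out composition. Each circRNA has 1 junction, so no correction for length was made. Levels ran from 0.73 to 91.3 with a median of 3.91, and 125 of the 682 stood at 10 or more. The total of reads over the 6 libraries ran from 8 to 1110 (median 48, quartiles 30 and 89), against a median of 4 and a maximum of 77 for the 4386 circRNAs of the same type found in 1 to 5 libraries.

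**Figure D1:**
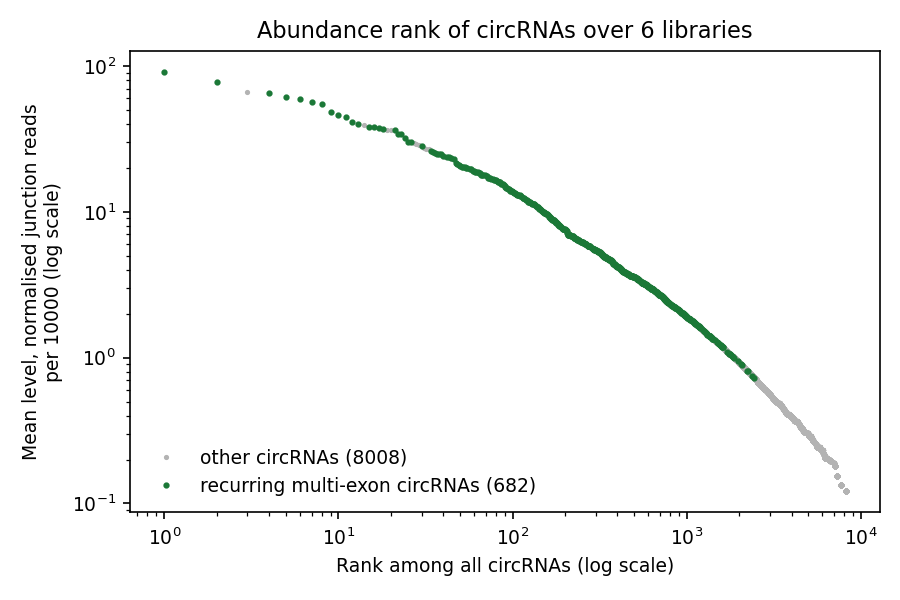
Mean level of every circRNA (vertical axis, normalised junction reads per 10000, log scale) against its rank among all 8690 (horizontal axis, log scale), with the 682 recurring multi-exon circRNAs in green and the others in grey. Green points fill 9 of the first 10 ranks and 85 of the first 100, and they end at a level of 0.73.

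By rank they held 9 of the 10 highest levels among all circRNAs, 38 of the first 50, 85 of the first 100 and 383 of the first 500. The remaining place in the first 10, at rank 3, belonged to a circRNA of the long non-coding gene LOC115256201, which the rule leaves out as non-coding. Reads were spread over many circles: the 10 most abundant held 12.6% of the reads of the 682, the first 50 held 34.1%, and 102 circles were needed to reach 50%.

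The highest level belonged to LOC109412837 (contig NW_021838617.1, positions 77215 to 78450, minus strand), a gene without a known product, whose circle has a spliced length of 972 bases. It stood at 84.1, 77.0 and 98.3 in female replicates 1, 2 and 3 and at 108, 88.9 and 91.4 in male replicates 1, 2 and 3. The sexes overlapped, and it ranked first among all circRNAs. Tyrosine-protein phosphatase non-receptor type 21 (LOC109416253; NW_021838153.1, 160230755 to 160231448, plus strand), an enzyme that removes phosphate from tyrosine, came next with 83.5, 88.7 and 94.6 in females and 75.9, 59.2 and 67.8 in males. Its 3 female libraries all lay above the 3 male ones, and this circle was the only one listed for the gene. Cytospin-A (LOC109406300; NW_021837267.1, 45244830 to 45245392, plus strand), which links actin and microtubules, stood at 71.8, 61.8 and 49.9 in females and at 63.9, 66.8 and 51.1 in males, with overlap; a circle of the same span and spliced length was listed at another gene. These 3 circles were the only ones among the 10 most abundant recurring circles of every single library.

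Other circles of the first 10 came from lipid, cytoskeleton and regulatory genes. The microtubule-associated protein futsch-like gene (LOC109431650), whose fly counterpart stabilises microtubules in axons, stood at 35.0, 62.4 and 63.8 in females and 48.6, 68.0 and 60.9 in males. Septin-7 (LOC109408584), a filament-forming GTPase of the cell cortex, stood at 48.5, 43.2 and 33.0 against 43.5, 51.9 and 46.8. In both, the libraries of the sexes overlapped. The 1-acylglycerol-3-phosphate O-acyltransferase Pnpla3-like gene (LOC109399662), of an enzyme family of lipid metabolism, stood at 53.4, 58.3 and 27.1 in females and at 71.7, 74.1 and 74.3 in males. The acyl-CoA Delta(11) desaturase-like gene (LOC109412434), which encodes an enzyme that places double bonds in fatty acids, stood at 86.0, 54.8 and 62.3 in females and at 32.9, 43.5 and 51.1 in males. Female values lay below all male values for the acyltransferase and above all male values for the desaturase.

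**Figure D2:**
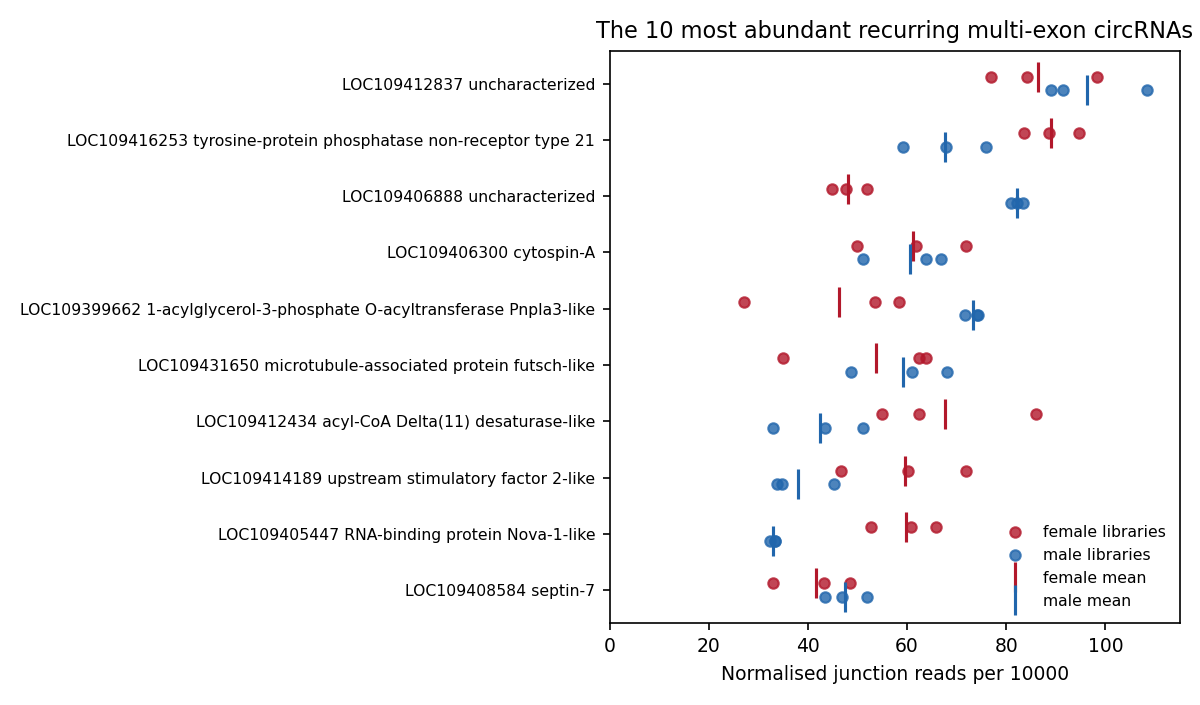
Level of the 10 most abundant recurring multi-exon circRNAs (rows) in each library, on a linear axis of normalised junction reads per 10000 from 0. Dots are single libraries, red for 3 female and blue for 3 male ones, and ticks are the means. Dots of the sexes overlap for LOC109412837, cytospin-A, futsch-like and septin-7, and are apart for the other 6.

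The order of abundance was partly shared between libraries. Ranked among the 682 alone, the first 10 circles of a single library included 6 to 9 of the first 10 by mean level. The first 50 included 36 to 39 of the first 50. Across the 682 circRNAs, Spearman's rho of junction reads was 0.57 to 0.77 between libraries of the same sex (6 pairs) and 0.51 to 0.64 between sexes (9 pairs). The 3 male pairs stood at 0.74 to 0.77 and the 3 female pairs at 0.57 to 0.61, with fewer reads in the female libraries. These correlations are descriptions over circRNAs chosen by their reads.

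Recurrence was read from libraries that the selection had not used. Of 834 circRNAs of this type with reads in all 3 female libraries, 81.8% also had reads in all 3 male libraries and 1.08% in none. Of 1460 with reads in all 3 male libraries, 46.7% had reads in all 3 female libraries and 10.1% in none. When 1 library was set aside, the circRNAs found in the other 5 had a read in it in 82.2% to 89.3% of cases for a female library and 93.8% to 96.1% for a male one. The order of these shares follows the depth of the library set aside only in part, since female replicate 3 was the shallowest and stood at 83.8%. The part of depth in these shares was not tested.

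The spread between libraries was set beside counting error, taken for each circle as the inverse root of its mean count in that sex. The coefficient of variation (CV, the SD over the mean) of the level within a sex had a median of 48.0% in females and 37.9% in males. The medians of the counting value were 39.7% and 32.7%. For the 169 circles with under 30 reads in total the medians were 58.0% and 52.9%, against 54.8% and 52.2% from counting. For the 361 circles with at least 30 and under 100 reads they were 53.7% and 39.9%, against 38.7% and 32.2%, the largest excess in females of the 3 classes. For the 152 circles with 100 or more reads they were 27.4% and 23.7%, against 20.7% and 16.5%. Counts above 0 in every library were required, which keeps the lowest values out of the CV of rare circles. A median of CVs from 3 libraries also tends to lie below the long-run CV that the counting value stands for. The measures are therefore unlike, and the excess over counting error was not tested.

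**Figure D3:**
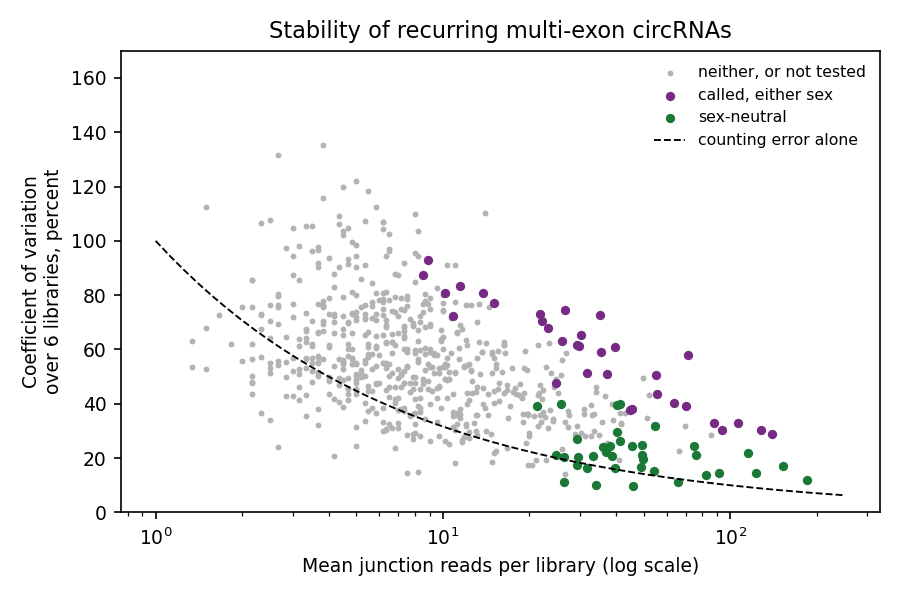
CV of the level over the 6 libraries (vertical axis, percent) against the mean number of junction reads per library (horizontal axis, log scale) for the 682 recurring multi-exon circRNAs. The dashed line is the CV of counting error alone, green points are sex-neutral circles and purple points circles that differed between the sexes. Among the 129 circles with a mean of 20 reads or more, values run from 9.55% to 74.4%.

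Among the 129 circles with a mean of 20 or more reads per library, the median CV over all 6 libraries was 33.4%. The lowest, 9.55%, belonged to zinc transporter 1-like (LOC109407948), a membrane carrier that exports zinc. Its levels were 23.9, 26.2 and 22.0 in females and 19.9, 21.7 and 23.6 in males, so the libraries overlapped. Protein expanded (LOC109433586), an upstream member of the Hippo growth-control pathway in flies, followed with a CV of 10.3%, at 16.0, 18.1 and 14.7 against 14.8, 18.5 and 17.8. LOC115254439, without a known product, had a CV of 11.0%, and a facilitated trehalose transporter Tret1-like gene (LOC115256489), of a family that transports trehalose, the main sugar of insect haemolymph, had 11.3%. The 4 highest CVs, 70.6% to 74.4%, belonged to circles that differed between the sexes: LOC109419083, ribosomal protein S6 kinase beta-2 (LOC109418942), target of Myb protein 1 (LOC109420220) and diuretic hormone receptor-like (LOC109420199).

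Lengths were not chosen by reads, apart from the upper limits. The median spliced length of the 682 circles was 589.5 bases (quartiles 424 and 861), and 84.0% were shorter than 1000 bases. Circles of the same type found in 1 to 5 libraries had a median of 669 bases (quartiles 437 and 1008), and 74.5% were shorter than 1000 bases. The span in the genome differed more: the median was 1034 bases for the recurring circles, 1290 for those in 5 libraries and 2027 for those in 1 library. The sequence of inner introns had a median of 263 bases in recurring circles, and 996 in circles found in 1 library. It was under 150 bases in 36.1% of the recurring circles and in 26.6% of those in 1 to 5 libraries. No test was made over circRNAs, because circles of 1 gene share their exons.

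**Figure D4:**
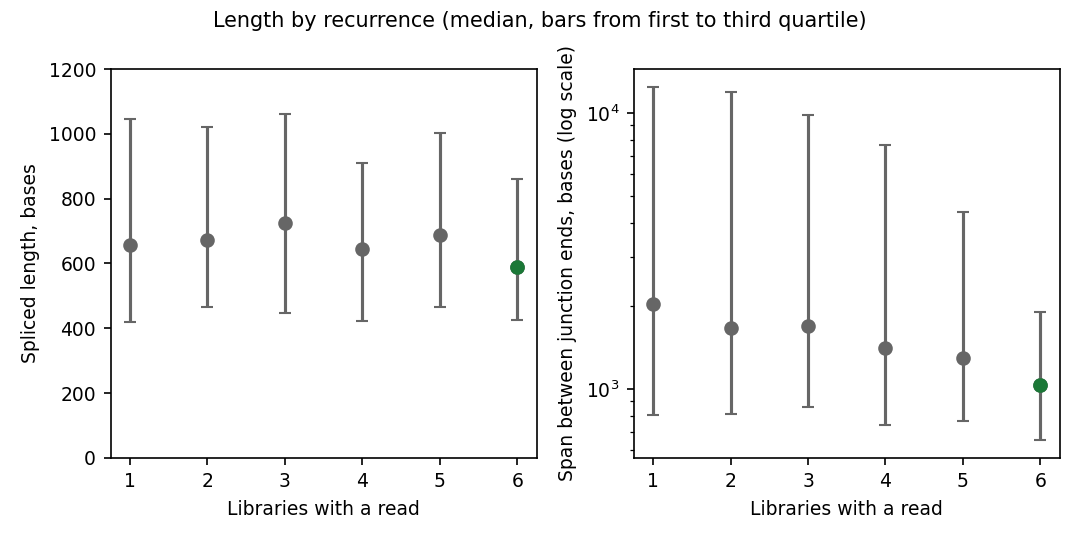
Spliced length (left, linear axis from 0) and span in the genome (right, log scale), both in bases, for circRNAs of coding exons with an inner intron by the number of libraries with a read. Points are medians and bars run from the first to the third quartile. The median span falls from 2027 bases at 1 library to 1034 at 6, the latter in green, and the spliced length lies between 589.5 and 723.5 throughout.

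Within the 682, abundance followed the span weakly. The 170 circles with the highest levels had a median span of 888.5 bases and the 171 with the lowest 1268, and Spearman's rho of level with span was -0.16 and with spliced length -0.05 over the 682 circles. The shortest circles, 206 bases each, came from a pair of RING finger and SPRY domain-containing protein 1 genes (LOC109427582 and LOC109432794) with 24 and 32 reads. The widest, at the trissin receptor, a receptor for a small peptide known in flies, held 875 spliced bases and 18 reads, whereas the diuretic hormone receptor circle, from a receptor for peptides that control fluid secretion, had 199 reads over its span of 45205 bases.

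Most circles lay away from the 5′ end of the annotated gene. The median distance of the upstream end from the 5′ end of the gene was 74.97% of the gene's length, against 69.8% for circles of the same type in 1 to 5 libraries, and 4.11% against 8.46% began in the first 10% of the gene. The deposited region label named a start codon for 10 of the 682 circles (1.47%). For 4 circles the label did not name coding sequence, among them LOC115260002, whose label named a stop codon. All 682 lay on the strand of their host gene.

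A host gene usually gave 1 recurring circle, which was its main one. Of the 588 host genes, 511 gave 1 and 66 gave 2, whereas 6 gave 3, 4 gave 4 and 1 gave 5. In 559 of the 588 the circRNA with most reads was a recurring circle. The median share of a host gene's junction reads held by a circle was 82.3%, against 37.5% for those of the same type in 1 to 5 libraries, and 154 circles were the only one listed for their gene. The rule chose circles by the same reads that make up this share and the order within a gene, so both are descriptions. Because 95 of the circles shared a start or an end with another and 103 overlapped another, they are not all separate measurements of different sequence.

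The gene with 5 recurring circles was zinc finger protein 420 (LOC109420654), a DNA-binding protein by its name, with 34 circRNAs in all. Its main circle (NW_021838687.1, 41668365 to 41670462, plus strand) held 57.9% of the gene's 718 reads and stood at 51.0, 47.2 and 35.9 in females and at 29.2, 34.2 and 19.9 in males, with no overlap. That difference missed the threshold (female over male, log2 fold change 0.69, SE 0.24, edgeR adjusted p = 0.059). The other 4 held 2.79% to 9.19% each. The gene LOC109411905 for voltage-gated potassium channel subunit beta-2, an accessory subunit of channels that repolarise neurons and muscle, gave 4 circles, 3 of which shared the end at position 6808891. They held 39.6%, 22.8%, 21.4% and 11.2% of its 589 reads, and all 4 had lower means in females, with edgeR adjusted p = 0.13 to 0.63. The ATP-binding cassette sub-family G member 1-like gene (LOC109433115), from a family of lipid pumps, also gave 4, at 34.4%, 18.5%, 16.7% and 12.1% of 448 reads.

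Females and males were compared to find which recurring circles differ by sex and which do not. For this, edgeR's quasi-likelihood test was run across all 738 circRNAs with enough reads, with Benjamini-Hochberg adjustment over all of them and a threshold of 0.05. Of the 682 circles, 482 entered and 200 had too few reads. A required read in every library leaves out circles absent from a sex, and it bears harder on the shallower female libraries, so the counts below describe a chosen set. Female-higher calls numbered 20 of 482 (4.15%), beside 3.79% of all circRNAs tested, and male-higher calls 13 (2.70%), beside 2.85%. Both shares lay near the background, but the 738 circRNAs hold the 482 circles themselves. Of the 28 female-higher and 21 male-higher calls among the 738, 20 and 13 were recurring circles. Without a filter on low counts the split was 0 and 12 in place of 20 and 13. The log2 fold changes of female over male in that fit were shifted by a median of -0.31. At an unadjusted p under 0.05 that edgeR fit gave 29 and 78 recurring circles, and the main edgeR fit gave 48 and 38. The same shares over all circRNAs were not worked out. DESeq2 with the filter called 27 and 15. Among the 482 tested circles, 62 had every female library above every male one (12.9%, beside 12.1% of all tested), and 65 had the reverse (13.5%, beside 14.9%). Over all 682 circles, with the 200 untested ones of few reads, the counts were 88 and 74.

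**Figure D5:**
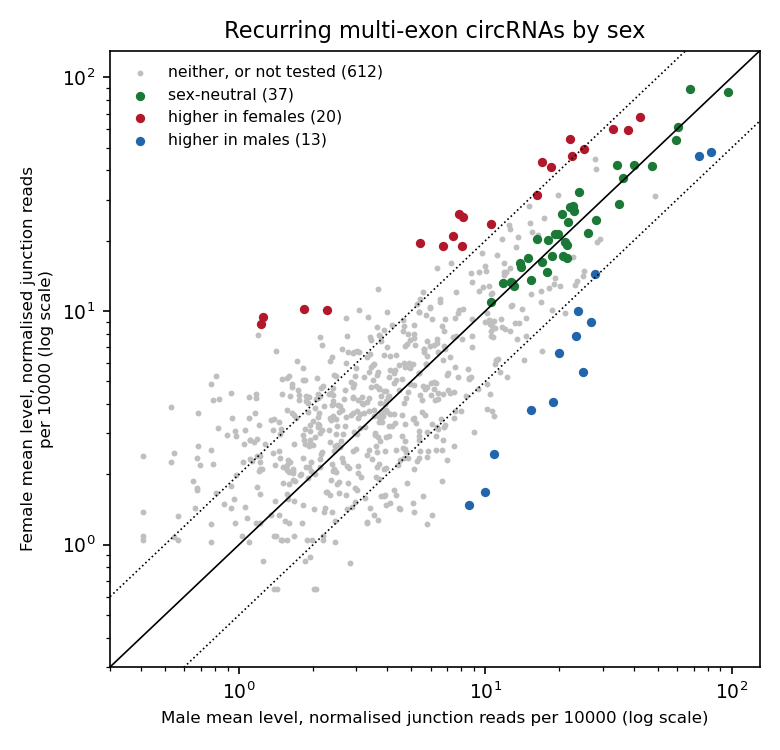
Mean level in females (vertical axis) against males (horizontal axis) for the 682 recurring multi-exon circRNAs, both in normalised junction reads per 10000 on log scales. The solid line marks equal levels and the dotted lines a 2-fold difference; red and blue points are circles called higher in females (20) and males (13), green points the 37 sex-neutral circles. Green points begin at levels near 10, and 478 of the 682 points lie within the dotted lines.

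Mean levels differed by less than 2-fold for 478 of the 682 circles (70.1%). The log2 ratio of female over male mean levels had a median of 0.19 and ran from -2.57 to 2.91. A small ratio alone does not show equality when counts are low, so a circle was called sex-neutral only if it was not called and the 95% interval of its log2 fold change lay wholly between -1 and 1, that is, within 2-fold either way. This held for 37 of the 482 circles tested (7.68%), and 412 were neither called nor sex-neutral. Among all 738 circRNAs tested, these 482 included, 45 were sex-neutral (6.1%), and 37 of the 45 were recurring circles. The sex-neutral circles had 127 reads or more (median 248), so the property was within reach only of abundant circles.

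Of the 37 sex-neutral circles 12 were in none of the function lists described below and 9 were uncharacterized. The narrowest interval was that of cytospin-A, which had a log2 value, female over male, of 0.02 (SE 0.19, interval -0.36 to 0.39, edgeR adjusted p = 0.97). The circle of LOC109412837 had -0.16 (interval -0.47 to 0.16). C-1-tetrahydrofolate synthase, cytoplasmic (LOC109411581), an enzyme of folate metabolism, stood at 30.7, 40.8 and 39.6 in females and at 27.8, 29.8 and 51.5 in males, and its interval ran from -0.46 to 0.50. Male replicate 3 was the highest of these libraries and the other male replicates the lowest. Mitochondrial carrier protein Rim2-like (LOC115253702), which in yeast and animals carries nucleotides into mitochondria, stood at 35.6, 41.4 and 49.1 against 42.1, 44.7 and 34.1 (interval -0.38 to 0.50). The sexes overlapped. Futsch-like (-0.55 to 0.26) and septin-7 (-0.61 to 0.24) completed the first 6.

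Wider intervals were also within the limits. Amphiphysin (LOC109426687), which bends membranes, had an interval of -0.14 to 0.77. That of ras-related protein Rab-5B-like (LOC109429880), a GTPase of early endosomes, was -0.32 to 0.79, and that of ras-related protein Rab-11B (LOC109405114), of recycling endosomes and also with a possible copy, was -0.47 to 0.82. Tyrosine-protein phosphatase non-receptor type 21 met the definition although its interval, 0.06 to 0.73, lay above 0 and its libraries did not overlap; its difference missed the threshold (edgeR adjusted p = 0.14). The diuretic hormone receptor circle with the span of 45205 bases was sex-neutral as well (-0.95 to 0.44). Whichever library was left out, 12 of the 37 stayed sex-neutral: cytospin-A, LOC109412837, C-1-tetrahydrofolate synthase, Rim2-like, futsch-like, septin-7, zinc transporter 1-like, the phosphatase, protein expanded, LOC115260002, the Tret1-like circle of LOC115256489 and amphiphysin.

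Of the 20 circles higher in females, 7 were in no function list and 3 were uncharacterized. Ras-related protein Rab-11B-like (LOC109415406; NW_021838909.1, 1560542 to 1563149, plus strand) stood at 51.0, 36.7 and 42.5 in females and 15.7, 20.1 and 15.2 in males (43.4 ± 7.15 against 17.0 ± 2.69, SD, n = 3 each; 2.54-fold, edgeR adjusted p = 0.00019). A circle of the gene for the G(q) alpha subunit (LOC109417786), which couples receptors to phospholipase C, stood at 33.2, 18.7 and 26.4 against 6.94, 6.44 and 10.2. That of histone-lysine N-methyltransferase trithorax (LOC109416761), which marks active genes, stood at 30.7, 25.1 and 19.8 against 11.6, 8.45 and 4.35. Female libraries lay above male ones in each of these circles. The folds of the last 2 were 3.28 and 3.14 (edgeR adjusted p = 0.00079 and 0.0018). Another recurring circle of the G(q) gene, with 44 reads, was not called (log2 fold change 0.69, interval -0.78 to 2.16). The sex-neutral Rab-11B circle (LOC109405114) lies on the same contig as Rab-11B-like, and both have 469 spliced bases. Their log2 fold changes were 0.17 and 1.35, and whether these genes share reads was not tested.

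The uncharacterized LOC109423355 (2.45-fold), F-actin-uncapping protein LRRC16A (LOC109398163; 2.22-fold), which acts on actin filament ends, and TRPL translocation defect protein 14 (LOC109408212; 2.05-fold) were also higher in females. RNA-binding protein Nova-1-like (LOC109405447), a splicing regulator, stood at 60.8, 65.9 and 52.8 in females and 33.3, 33.4 and 32.3 in males, a 1.82-fold difference (log2 fold change 0.86, SE 0.21, edgeR adjusted p = 0.0035). Its male libraries lay close together and below every female one. Ribosomal protein S6 kinase beta-2, which promotes protein synthesis in response to nutrients, stood at 15.4, 16.3 and 27.1 in females and 1.85, 9.66 and 4.71 in males, with no overlap. Its fold was 3.53, and its log2 value of 1.82 became 2.54 without male replicate 2 and 1.44 without male replicate 1. The call held in 3 of the 6 fits without 1 library. The circle of lipid storage droplets surface-binding protein 1 (LOC109413900), which coats fat droplets, had a fold of 2.79. The widest folds among these calls were 7.35 and 6.94, at LOC109406048 and the basement membrane-specific heparan sulfate proteoglycan gene (LOC109404958), whose circles had 53 and 51 reads.

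Of the 13 circles higher in males, 5 were uncharacterized and 1 was in no function list. Target of Myb protein 1 (NW_021838153.1, 46434200 to 46441852, plus strand), which sorts ubiquitin-tagged cargo at endosomes, stood at 1.23, 9.33 and 5.87 in females and 24.1, 27.0 and 23.9 in males (4.50-fold, edgeR adjusted p = 0.00019; log2 fold change of female over male -2.17, and -2.86 without female replicate 2). LOC109419083 stood at 2.46, 1.75 and 8.07 against 16.7, 18.1 and 21.8 (4.76-fold; log2 fold change -2.25, and -3.10 without female replicate 3). Male libraries lay above female ones in both. The smallest sizes over the fits without 1 library were -1.68 for target of Myb protein 1 and -1.88 for LOC109419083. Sodium/hydrogen exchanger 9B2 (LOC109411550), an ion exchanger, stood at 1.84, 13.4 and 11.7 against 30.5, 28.2 and 22.1. A cAMP-specific phosphodiesterase-like gene (LOC109427728), whose enzyme breaks down cAMP, stood at 7.37, 11.7 and 4.40 against 20.4, 28.2 and 21.8. Both were higher in males, by 2.99-fold and 2.93-fold (edgeR adjusted p = 0.0035 and 0.0039).

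A circle of LOC109402218, named leucine-rich repeat flightless-interacting protein 2, stood at 1.23, 2.33 and 1.47 in females and 8.33, 9.66 and 11.97 in males, which gave the widest male fold, 5.74. ABC transporter G family member 23-like (LOC109432219) had a male fold of 2.99. Diuretic hormone receptor-like stood at 7.37, 1.75 and 2.20 in females and at 13.9, 14.9 and 17.4 in males. Its log2 value was -2.93 when female replicate 1 was left out and -1.63 when female replicate 2 was. Its call held in only 1 of the 6 fits without 1 library. All 3 circles had male libraries above the female ones. The most abundant male-higher circle, of the uncharacterized LOC109406888, stood at 44.8, 51.9 and 47.7 in females and 81.0, 82.1 and 83.4 in males (1.71-fold, edgeR adjusted p = 0.0027). A circle with the same span and spliced length was listed for LOC109404443, so the division of reads between these genes is uncertain. The circle of LOC109404443 stood at 27.0, 37.9 and 27.9 in females and 41.7, 51.5 and 54.0 in males, also without overlap (log2 value -0.66, edgeR adjusted p = 0.059). Of the 33 circles called in either direction, 11 held whichever of the 6 libraries was left out: Rab-11B-like, G(q) alpha, trithorax, LRRC16A, TRPL translocation defect protein 14, Nova-1-like, LOC109423355, the basement membrane proteoglycan, target of Myb protein 1, LOC109419083 and LOC109406888. The last 3, all higher in males, also passed under every other alternative tried. The first 8, all higher in females, were lost only in the fit without a filter on low counts. In that fit the log2 fold changes of female over male were shifted by a median of -0.31. The other 22 of the 33 were lost in 1 or more of the fits without 1 library. Leaving out male replicate 1 gave 10 female-higher and 5 male-higher calls, and leaving out male replicate 2 gave 12 and 6.

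Host gene functions were read from words in product names, in lists chosen with earlier results of these data known, and a gene could enter several lists. Beside the counts per list stand the shares over all 738 circRNAs tested: 3.79% higher in females, 2.85% higher in males and 6.1% sex-neutral. Uncharacterized products made up 110 of the 682 circles (16.1%, beside 14.6% of the circles of the same type in 1 to 5 libraries) and 233 were in no list. Receptors and neuronal signalling gave 60 circles (8.80%, beside 8.03%), with 1 of 46 tested higher in females, 2 higher in males and 3 sex-neutral. The first of these by level were the phosphatase above, taken in by the word non-receptor, and low-density lipoprotein receptor-related protein 1 (LOC109623365), an uptake receptor, at 18.4, 26.8 and 12.5 in females and 32.9, 12.1 and 19.6 in males. That circle was sex-neutral (interval -0.79 to 0.52) and had a possible copy. Metabolic and mitochondrial enzymes also gave 60 circles (8.80%, beside 8.37%) and 10.8% of the reads of the 682. Calls among its 44 tested circles were 2 female-higher and 1 male-higher, and the median log2 fold change was 0.07, beside -0.01 over all circRNAs tested. The female-higher ones were the desaturase and trithorax, the latter a chromatin gene taken in by the word methyltransferase.

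Ion channels and transporters gave 50 circles (7.33%, beside 7.91%) with 5 sex-neutral circles among 40 tested, 1 female-higher call and 2 male-higher calls. Kinases and phosphatases gave 48 (7.04%), where the S6 kinase was the single call among 33 tested and the phosphatase the single sex-neutral circle. Protein kinase shaggy-like (LOC109401332), the insect glycogen synthase kinase 3 of Wnt signalling, stood at 18.4, 23.3 and 14.7 in females and 15.7, 14.5 and 9.79 in males, with overlap (adjusted p = 0.44). The list of cytoskeleton and motor genes gave 36, of which 11 were matched only through part of another word such as interacting, with 2 of 25 tested higher in each sex and 4 sex-neutral. Without those matches 25 circles were left, of which 18 were tested, 1 was higher in each sex and 3 were sex-neutral.

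Small GTPases and their regulators gave 26 circles, 3.81% of the recurring circles beside 1.66% of the others. In contrast, cell adhesion, axon guidance and matrix genes gave 11 (1.61%, beside 3.06%) and RNA binding, splicing and translation genes gave 13 (1.91%, beside 3.76%). In the adhesion list 2 of 6 tested members were higher in females, beside 3.79% of all circRNAs tested. They were the basement membrane proteoglycan and contactin-associated protein-like 4 (LOC109399283), a neuronal adhesion protein, at 10.4, 7.58 and 12.5 in females and 1.39, 1.21 and 2.90 in males (5.28-fold). The circle of the latter passed in 4 of the 6 fits without 1 library. Male replicates 1, 2 and 3 held only 3, 3 and 3 reads of the proteoglycan circle and 3, 3 and 8 of the other. Neither call held without the filter on low counts. In the RNA binding list 2 of 10 were higher in females, Nova-1-like and the S6 kinase, which was taken in by the word ribosomal. Chromatin and transcription genes gave 34 circles, with trithorax the single call among 21 tested. Ubiquitin pathway genes gave 20, among them F-box/LRR-repeat protein 20-like (LOC109429437), a substrate adaptor, at 50.4, 26.2 and 17.6 in females and 16.7, 20.1 and 22.1 in males (adjusted p = 0.15). The words for vesicle traffic matched 4 circles (0.59%, beside 1.30%). They miss Rab-5B-like, Rab-11B, Rab-11B-like, target of Myb protein 1 and amphiphysin, so this count does not cover all such genes.

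Several recurring circles came in pairs with the same product name, different gene numbers and spliced lengths within 3 bases. There were 44 such pairs. In 30 pairs both circles were tested, and in 20 of these the log2 fold changes had the same sign. In 5 of the 30 exactly 1 circle was called. Such pairs may share reads, and how the authors assigned reads to near-identical genes is not given in the sources used here. The Tret1-like pair (335 spliced bases each, spans of 418 and 420 bases on contig NW_021838798.1) had unlike values. LOC109428485 stood at 57.7, 43.2 and 47.7 in females and 29.2, 18.1 and 28.3 in males, and LOC115256489 at 28.2, 28.6 and 29.3 against 35.6, 36.2 and 33.0. The first had a female fold of 1.97 (log2 value 0.98, interval 0.51 to 1.44) and the second was sex-neutral (-0.28, interval -0.77 to 0.20); the difference between the circles was not tested. The Nova-1-like pair (1147 bases each) had like values, with LOC109402403 at 23.9, 23.3 and 24.2 in females and 18.0, 14.5 and 13.1 in males (log2 fold change 0.65, adjusted p = 0.22). The sex-lethal-like pair (LOC109404970 and LOC115261543), named after the sex switch of fruit flies, overlapped between the sexes in both circles. Their levels were 12.2 ± 1.06 and 11.9 ± 3.44 in females and 16.9 ± 5.27 and 15.3 ± 4.24 in males (SD, n = 3 each).

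Set against all junction reads, the recurring circles took 49.99%, 49.3% and 50.5% of the reads in the female libraries and 46.3%, 46.2% and 47.5% in the male ones. The means were 49.9 ± 0.60% and 46.7 ± 0.73% (SD, n = 3 each), a difference of 3.25 percentage points. No test is given, because the rule chose the circles by the same counts and asked for a read in every library, which the shallower female libraries meet less easily.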

How the data were processed

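The members, lists and tests were chosen with earlier results of these data known. Per the labels' protocols, total RNA was depleted of ribosomal RNA, digested with RNase R and made into directional KAPA libraries, and both ends were read on a HiSeq X10. Bowtie2 2.1.0 is a tool in the submitters' processing notes; circRNA caller, genome build and annotation: not given in the sources used here. The deposited counts are whole-number junction reads, and 30393 lines (1 per protein) were collapsed to 8690 circRNAs. The authors' deposited table of TMM-normalised CPM lists 764 circRNAs, 492 of them described here; dividing by a single step in each library, 100% gave the whole reads of the count table (tolerance 0.01 reads). Spliced length is another deposited value, in bases. Positions are the table's own; their base (0 or 1) is unknown.

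The sexes were compared on these counts by edgeR 4.0.16 (R 4.3.3): filterByExpr (minimum count 5, minimum total 15), TMM factors, the quasi-likelihood test of sex over all circRNAs, Benjamini-Hochberg adjustment. SEs were the absolute log2 fold change divided by the root of F, and intervals use the t quantile. DESeq2 1.42.0 was an alternative. Figures used matplotlib 3.10.9 in Python 3.11.15. Possible copies were circles (71 of the 682) that another gene matched in both span and spliced length. The pairs of like names were defined after the data were seen. The series design calls the pools biological replicates, and chi-square over degrees of freedom between pools of a sex was 2.13 to 2.85, so none was treated as a repeat of another. Reads carry no molecular identifiers. Named circles were the 10 most abundant; up to 8 calls per direction by p; the 6 narrowest sex-neutral intervals; the 4 lowest and 4 highest CVs at a mean count of 20 or more; the extremes of length and span; the 3 genes with most circles; the first 2 per list; and circles beside each limit. Others named were chosen after their values were seen.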

Additional observations from a re-analysis of the deposited data

How the results depend on the processing

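Between DESeq2, other library scalings, a minimum count of 10, the reads recovered from the CPM table (an alternative chosen after seeing the data), and leaving out possible copies, female-higher calls ranged from 18 to 27, male-higher calls from 12 to 15 and sex-neutral circles from 31 to 38. On the 764 circRNAs of the CPM table the count test called 19 and 12 of the recurring circles. Without a filter on low counts, female-higher calls fell to 0 and male-higher calls stood at 12; the cause was not tested. Of the 37 sex-neutral circles, 22 remained so in that fit. With an interval limit of 1.5-fold, 5 circles were sex-neutral. Leaving out 1 library at a time gave 10 to 20 female-higher calls, 5 to 16 male-higher calls, 25 to 36 sex-neutral circles, a share difference of 2.96 to 3.67 percentage points and a median CV of 40.4% to 42.3%. With all 6 libraries that CV was 44.7% over all circles and 36.8% over the 452 with 2 or more reads in every library. A median CV tends to be lower where a sex has fewer libraries, so the range without 1 library does not show steadier levels. The replicate block gave 20 and 13 calls and 33 sex-neutral circles; same-numbered libraries shared only a number (correlations of deviations 0.02, 0.00 and -0.02). For the circles named, 42 combinations of circle and alternative missed the threshold and none reversed. Depth limits the sex-neutral class to abundant circles.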
